A study of Mus musculus with 35 samples.

Results

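Genes that encode sodium, calcium and potassium channels and their auxiliary subunits were collected by name stem: symbols starting with Scn and a digit, with Cacn or with Kcn, leaving out the antisense transcript Kcnq1ot1. This gave 134 of the 30723 gene symbols in the files, of which 14 are sodium, 26 calcium and 94 potassium channel genes. The level of a gene was its FPKM (fragments counted per unit of transcript length and of sequencing depth), summed over the transcripts listed under its symbol. Of the 134 genes, 52 averaged 1 FPKM or more in some tissue and are described here. They comprise 5 sodium, 17 calcium and 30 potassium channel genes, and these 52 were among 13934 genes tested in the same way.

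The libraries were made from polyA RNA of wild-type CD1 mouse embryos at embryonic day 11.5, an outbred strain with no allele or agent added to any group. Tissue from several embryos was pooled for each library. The frontonasal (FNP), mandibular (MNP) and maxillary (MXP) prominences of the face, the limb, the dorsal brain (dB) and the ventral brain (vB) were dissected, with 6 libraries each, except MXP with 5. The comparisons below set neural tissue (dB and vB, 12 libraries) against facial tissue (17 libraries) and against limb, facial tissue against limb, dB against vB, and the prominences against each other. All of them draw on the same 35 libraries, so the comparisons share samples.

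Voltage-gated channels are membrane proteins with an ion-selective pore that opens when the membrane potential changes. Sodium channels carry the upstroke of the action potential, calcium channels couple voltage to secretion, contraction and transcription, and potassium channels set the resting potential and end the action potential. Auxiliary subunits do not form the pore but alter its gating or its delivery to the membrane. Channel activity has also been studied in tissues without action potentials, since inherited defects of Kcnj2 and of Cacna1c in people include changes of the face and digits.

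The stems are wider than the term voltage-gated. By name, 10 sodium, 10 calcium and 40 potassium genes belong to pore families that respond to voltage, though single members may not. The remaining potassium pores were 15 inward rectifiers (Kcnj), 14 tandem-pore leak channels (Kcnk) and 8 genes grouped as ion-activated (Kcnma, Kcnn, Kcnt and Kcnu). Most of these 8 are activated by calcium or sodium ions. The auxiliary genes were 4 sodium, 16 calcium and 16 potassium genes, and Kcnrg, a cytoplasmic regulator of potassium channels, was the last. Several Cacng genes are better known as partners of glutamate receptors than of calcium channels.

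The potassium pores share a short filter that selects the ion, and its codons are shown for 7 members whose levels differed between tissues. Capitals mark the codons of the filter, each run is read 5′ to 3′ on the coding strand, and positions are on GRCm38 (mm10), from GENCODE transcripts. All 7 runs lie in a coding exon. For the Kcnk genes, whose subunits carry 2 filters, the second one is shown.
Kcnh2, chr5:24325549-24325575, minus strand: ctcaccAGCGTGGGCTTTGGCaatgtc
Kcnh4, chr11:100750287-100750313, minus strand: ctcaccAGTGTAGGCTTCGGCaacgtg
Kcnn1, chr8:70850651-70850677, minus strand: ttcttgTCCATTGGCTATGGAgacatg
Kcnj2, chr11:111072201-111072227, plus strand: cagacaACCATTGGCTATGGTttcagg
Kcnk1, chr8:126025323-126025349, plus strand: ctgagcACCATCGGCCTGGGGgactat
Kcnk10, chr12:98440599-98440625, minus strand: ctgaccACAGTAGGCTTTGGTgatttt
Kcnk2, chr1:189256575-189256601, minus strand: ctgacgACCATTGGATTTGGAgactac

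The pattern searched was a codon for threonine or serine, then for valine, isoleucine, threonine or leucine, then glycine, then tyrosine, phenylalanine or leucine, then glycine. A complete coding sequence was found for 133 of the 134 genes, and the longest was read for each. The filter occurred once in all 40 voltage-gated potassium pores, in all 8 ion-activated and in all 15 inward rectifiers, and it occurred 2 times in all 14 tandem-pore genes. It was found in 0 of 10 sodium pores, 0 of 10 calcium pores, 0 of 15 calcium, 0 of 16 potassium and 0 of 4 sodium auxiliary genes. The pattern was thus found in the potassium pores and not in the auxiliary Kcn genes. It allows alternatives at several positions, so this split partly follows from how it was written and is no independent evidence for the classes. The levels below are given in the order of pores and auxiliary genes.

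Most of the genes were scarce at this stage. The median over the 134 of the highest tissue mean was 0.705 FPKM, 82 stayed under 1 FPKM in every tissue, 19 stayed under 0.1 FPKM and 1, Kcnk15, was listed at 0 in every library. Only 20 reached 5 FPKM and 7 reached 10 FPKM. Just inside the limit for description was Kcnab1, a cytoplasmic beta subunit of potassium channels, at 1.04 FPKM in dB.

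The most abundant genes were auxiliary calcium channel genes rather than pores. Cacng4, which regulates glutamate receptors of the AMPA type, had the highest tissue mean, 40.8 ± 13.5 FPKM in dB (SD, n = 6). Cacng7, of the same family, and Cacnb3, a cytoplasmic beta subunit that carries calcium pores to the membrane, reached 36.9 ± 17.4 and 36.1 ± 15.2 FPKM in vB (SD, n = 6). Of the pores, Cacna1g, which conducts the low-threshold T-type calcium current, was highest at 28.8 ± 11.7 FPKM in MXP (SD, n = 5). Kcnmb4, a beta subunit of the large-conductance calcium-activated potassium channel, reached 20.4 ± 9.05 FPKM in limb (SD, n = 6), while the pore gene of that channel, Kcnma1, did not exceed 0.554 FPKM. Likewise Kcne3, an auxiliary subunit that assembles with Kcnq1, reached 8.25 ± 1.22 FPKM in MNP (SD, n = 6), where Kcnq1 had 0.318 ± 0.171 FPKM.

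Of the 52 described genes, 26 had their highest mean in vB and 9 in dB, against 7 in FNP, 4 in MNP, 4 in MXP and 2 in limb. The same count was not made over all genes tested, so it is not a trait of channel genes. Summed over all sodium channel genes, the level was 21.0 ± 9.50 FPKM in vB and 16.02 ± 5.76 in dB, and between 6.66 and 9.92 in the other tissues. The summed calcium channel genes reached 157 ± 70.2 FPKM in vB and 150 ± 43.9 in dB, with 112 to 120 in the prominences and 75.8 ± 26.7 in limb. The calcium pores alone went the other way, with sums of 20.3 ± 9.41 FPKM in vB and 20.2 ± 7.37 in dB. They had 37.0 to 42.3 in the prominences and 26.5 ± 11.7 in limb. In the prominences, Cacna1g made up the largest part of the pore sums. It lay at 13.8 to 42.4 FPKM in facial libraries, against 2.26 to 12.8 in neural ones. Sums without this gene were not made. Of the other pores described, Cacna1c, Cacna1d and Cacna1h were lower in neural than in facial tissue, and Cacna1a and Cacna1b were higher. The auxiliary calcium channel genes summed to 137 ± 61.1 FPKM in vB and 129 ± 36.7 in dB, against 75.3 to 77.6 in the prominences and 49.4 ± 15.1 in limb. The sums of the potassium channel genes were closer, from 69.8 ± 15.8 FPKM in limb to 106 ± 35.3 in vB.

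**Figure D1:**
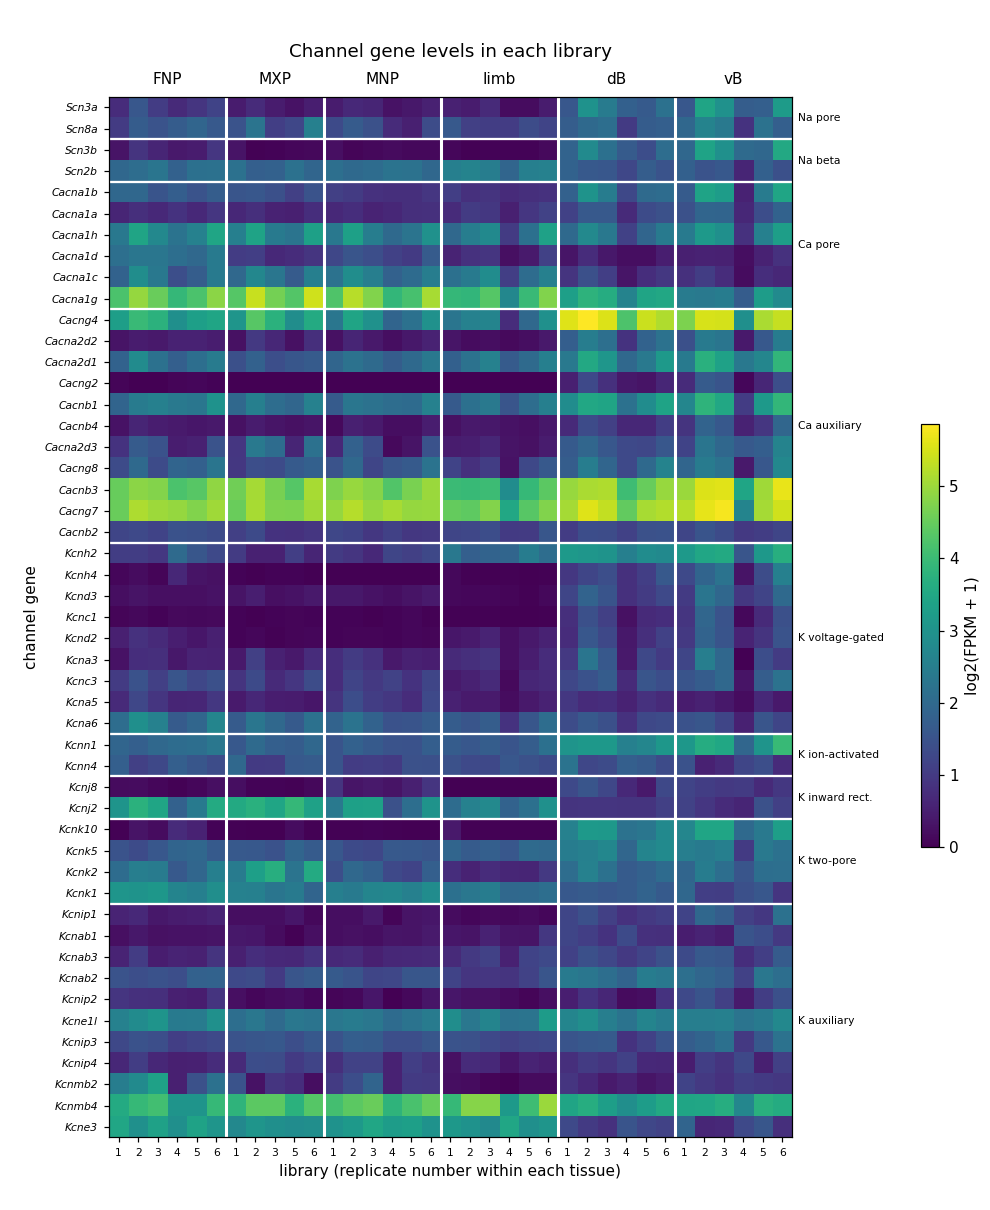
Each row is 1 of 49 of the channel genes, grouped by class, and each column is 1 of the 35 libraries, grouped by tissue, with the replicate number below; colour gives log2(FPKM + 1). The dB and vB columns are brighter for Scn3a, Scn3b, Cacng4 and Kcnk10 and darker for Kcnj2 and Kcne3, and vB replicate 4 is darker than the other vB libraries for Cacnb3, Cacng4 and Kcnh2.

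Members often lie beside each other in the genome, with unequal levels. Of the 134 genes, 53 fell into 22 groups in which neighbours lay within 500 kb. On chromosome 11, Cacng4 lies between Cacng1 and Cacng5, which reached 0.193 and 0.678 FPKM where Cacng4 reached 40.8. On chromosome 7, Cacng7 had a highest tissue mean of 36.9 FPKM, its neighbour Cacng8 had 3.24 and Cacng6 had 0.103. Scn3a and Scn2a1, sodium pores side by side on chromosome 2, reached 5.29 and 0.975 FPKM. Kcnj2 reached 11.3 FPKM and Kcnj16, next to it on chromosome 11, 0.259.

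The libraries were not uniform within tissues, and this touched several results. Between 11742 and 12955 genes reached 1 FPKM per library. In vB replicate 4, genes with transcripts of at least 6000 bases deviated from the tissue median by -0.836 relative to genes under 2000 bases, on the log2 scale. In limb and dB replicates 4 this value was -0.504 and -0.452. Replicates numbered 2 mostly deviated upward, at 0.557 in dB, 0.479 in vB, 0.377 in FNP and 0.374 in both MNP and MXP. Limb replicate 2 was at -0.0807. FNP replicates 4 and 5 had mean log2 levels of neural progenitor markers of 4.53 and 4.25, against 2.44 to 2.91 in the other 4 FNP libraries. In vB, the mesenchyme marker mean ran from 0.701 in replicate 6 to 4.56 in replicate 5. Replicate 1 libraries held 19.1 to 39.2% of their FPKM in transcripts under 200 bases, the others 0.653 to 10.3%.

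Neural against facial tissue, 16 of the 52 genes were called, meaning an adjusted p under 0.05 in limma across all 13934 genes and a difference of at least 1 in log2(FPKM + 1). Of these, 10 were higher in neural tissue (19.2% of the 52, where 6.64% of all genes tested were called higher) and 6 were lower (11.5%, where 4.64% of all genes were called lower). The median difference over the 52 was 0.55, against -0.02 over all genes. Without the limit on size, 41 of the 52 had an adjusted p under 0.05 in limma, so a gene not called may still differ by less than 1. The share of all genes tested under this adjusted p was not counted. The higher ones included Scn3a, Scn3b, Cacng4, Cacna2d2, Kcnh2, Kcnh4, Kcnd3, Kcnn1 and Kcnk10. The lower ones were Cacna1c, Cacna1d, Cacna1g, Kcnj2, Kcnk1 and Kcne3. In bulk tissue, a lower level in each cell and fewer cells of the type that expresses a gene cannot be told apart.

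Both sodium channel genes that were called are known from embryonic neurons. Scn3a (chr2:65457117-65567492), the pore of a sodium channel most abundant before birth, lay between 2.00 and 9.79 FPKM in the 12 neural libraries, with a median of 3.04, and between 0.219 and 2.01 in the 17 facial libraries, with a median of 0.520. The ranges met only at FNP replicate 2, the highest facial library, and dB replicate 1, the lowest neural one, and the difference was 1.62 ± 0.16 on the log2 scale (SE; limma, adjusted p = 3.2e-10). Scn3b, a beta subunit of the same channels, lay between 1.63 and 10.7 FPKM in neural libraries (median 3.17) and between 0.0300 and 0.910 in facial libraries (median 0.125). Its ranges did not overlap, and the difference was 2.03 ± 0.14 (SE; limma, adjusted p = 4.0e-14).

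Scn8a, a sodium pore found along axons, was 0.35 higher and Scn2b, a beta subunit, 0.53 lower in neural tissue, and neither was called.

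Of 6 calcium pores described, 3 were called lower and 0 higher in neural tissue, with a median difference of -0.71. Of 11 auxiliary genes, 2 were called higher and 0 lower, with a median of 0.75. Of all genes tested, 6.64% were called higher and 4.64% lower. The difference between pores and auxiliary genes was not tested, and without vB replicate 4 the pore Cacna1b was called higher and Cacna1d was not called. The pores called lower were Cacna1c and Cacna1d, of the L-type calcium channels that couple excitation to contraction and secretion, and the T-type pore Cacna1g.

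Cacna1g (chr11:94408390-94474198) lay between 2.26 and 12.8 FPKM in neural libraries (median 7.24) and between 13.8 and 42.4 in facial libraries (median 22.2). No neural library reached the lowest facial one, and the difference was -1.66 ± 0.19 (SE; limma, adjusted p = 3.9e-09). Cacna1c (chr6:118592295-119196409) lay between 0.139 and 1.68 FPKM in neural libraries (median 0.736) and between 1.64 and 6.38 in facial libraries (median 3.94). The ranges met only at dB replicate 2, and the difference was -1.42 ± 0.16 (SE; limma, adjusted p = 4.4e-09).

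Cacna1d (chr14:30039938-30491156) lay between 0.156 and 0.793 FPKM in neural and between 0.594 and 4.23 in facial libraries. The difference of -1.01 ± 0.09 (SE; limma, adjusted p = 6.5e-12) was close to the limit of 1. It fell short of that limit under 6 of the 16 alternatives, at values from -0.963 to -0.999, among them without vB replicate 4 (-0.98), without MXP replicate 2 (-0.998) and within replicates 4 to 6 (-0.999). The exons of Cacna1d overlap those of Chdh, a protein-coding gene on the opposite strand. The 3 remaining pores were not called. Cacna1b, which conducts the N-type current at nerve endings, and Cacna1a, of the P/Q-type, were 0.93 and 0.71 higher in neural tissue. Cacna1h, a second T-type pore, was 0.40 lower.

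Of the auxiliary calcium channel genes, Cacng4 (chr11:107734779-107794464) lay between 6.59 and 57.5 FPKM in neural libraries (median 40.4) and between 2.72 and 19.2 in facial libraries (median 8.84). The lowest neural library was vB replicate 4, and the next was dB replicate 4 at 17.8 FPKM. The difference was 1.88 ± 0.24 (SE; limma, adjusted p = 6.0e-08). Cacna2d2 (chr9:107399879-107529343), an extracellular alpha2delta subunit that raises the number of calcium channels at the membrane, lay between 0.319 and 4.62 FPKM in neural libraries (median 3.01) and between 0.156 and 0.968 in facial libraries (median 0.360). Replicates 4 of vB and dB were the lowest neural libraries and lay within the facial range, and the difference was 1.34 ± 0.16 (SE; limma, adjusted p = 7.3e-09). Cacnb3 and Cacng7, the most abundant of the uncalled genes, were 0.22 and 0.14 higher.

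Among voltage-gated potassium pores, 4 of 11 were called higher in neural tissue and 0 lower, where 6.64% and 4.64% of all genes tested were. Those described are Kcnh2, Kcnh4 and Kcnd3.

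Kcnh2 (chr5:24319588-24351604), the pore of the rapid delayed rectifier of the heart, lay between 1.91 and 11.9 FPKM in neural libraries (median 7.61) and between 0.450 and 3.05 in facial libraries (median 1.09). The ranges overlapped through vB replicate 4, which was the lowest neural library, and FNP replicate 4, the highest facial one. The difference was 1.96 ± 0.15 (SE; limma, adjusted p = 8.5e-13). Kcnh4 (chr11:100740377-100759778), of the related Elk channels of the brain, lay between 0.240 and 4.91 FPKM in neural libraries (median 1.51). Its facial libraries ran from 0 to 0.575 (median 0.0413), with 5 of 6 MNP libraries listed at 0, and the difference was 1.29 ± 0.13 (SE; limma, adjusted p = 5.3e-10).

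Kcnd3, a pore of the transient A-type current that delays firing, was also called. It lay between 0.763 and 3.87 FPKM in neural libraries and between 0.162 and 0.398 in facial libraries. The ranges did not overlap, and the difference was 1.12 (limma, adjusted p = 1.0e-10). It was not called under quantile normalization (0.97) or within replicates 4 to 6 (0.91). Kcna6, a delayed rectifier of neurons, was 0.73 lower in neural tissue and was not called.

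Kcnk10 (chr12:98433993-98577940), a tandem-pore channel opened by stretch and lipids, showed the largest difference of the 52 genes. It lay between 2.99 and 9.99 FPKM in neural libraries (median 5.71) and between 0 and 0.658 in facial libraries (median 0.0298). All 12 neural libraries lay above all 17 facial ones, and the difference was 2.66 ± 0.12 (SE; limma, adjusted p = 1.3e-18). Kcnk1, a tandem-pore channel with a weak leak current, ran the other way, between 0.867 and 2.87 FPKM in neural and between 2.72 and 7.56 in facial libraries. Its ranges met at vB replicate 1 and MXP replicate 6, and the difference was -1.102 (limma, adjusted p = 2.9e-12), with -0.993 and no call within replicates 4 to 6.

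Kcnn1 (chr8:70842048-70863258), a small-conductance potassium channel opened by calcium, lay between 2.81 and 14.4 FPKM in neural libraries (median 7.60) and between 1.80 and 4.00 in facial libraries (median 2.42). Only vB replicate 4 fell within the facial range, and the difference was 1.25 ± 0.13 (SE; limma, adjusted p = 3.6e-10). Kcnn4, which is opened in the same way and is known from blood cells and epithelia, was 0.09 lower in neural tissue and was not called.

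Kcnj2 (chr11:111066163-111076825), an inward rectifier that holds the resting potential near that of potassium, was the potassium pore with the largest difference towards the face. It lay between 0.528 and 1.73 FPKM in neural libraries (median 0.885) and between 1.74 and 14.1 in facial libraries (median 9.24). The ranges did not overlap, although the lowest MNP library, 1.74, lay close to the highest neural one, and the difference was -2.11 ± 0.18 (SE; limma, adjusted p = 7.8e-12). Kcnj8, the pore of a channel closed by ATP in vessel walls, was 0.76 higher in neural tissue and was not called.

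Of 11 auxiliary potassium channel genes, 1 was called lower and 0 higher, where 4.64% and 6.64% of all genes tested were. The gene called was Kcne3 (chr7:100176669-100184869). It lay between 0.548 and 2.71 FPKM in neural libraries (median 1.30) and between 5.68 and 10.1 in facial libraries (median 7.31). Every neural library lay below every facial one, and the difference was -1.93 ± 0.11 (SE; limma, adjusted p = 1.3e-16). Kcnip1, a calcium sensor bound to A-type channels, was next at 0.98 higher in neural tissue. Kcnab1 was 0.68 higher, at 0.372 to 1.86 FPKM in neural and 0.0268 to 0.350 in facial libraries, and neither of them was called.

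**Figure D2:**
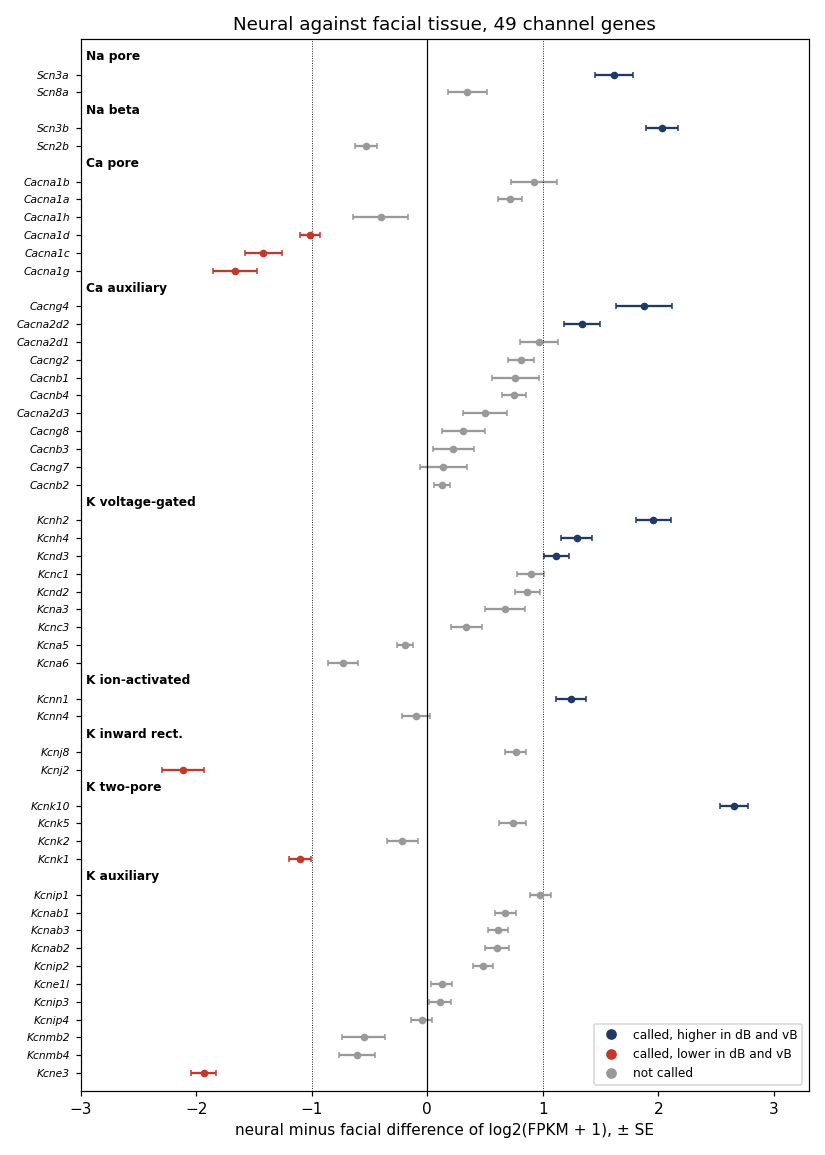
The neural minus facial difference of log2(FPKM + 1) for 49 of the genes by class, with bars of 1 SE from limma; dotted lines mark differences of 1. The 9 genes drawn as called higher in dB and vB come from sodium, calcium and potassium classes, up to 2.66 for Kcnk10, and the 6 called lower reach -2.11 for Kcnj2.

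**Figure D3:**
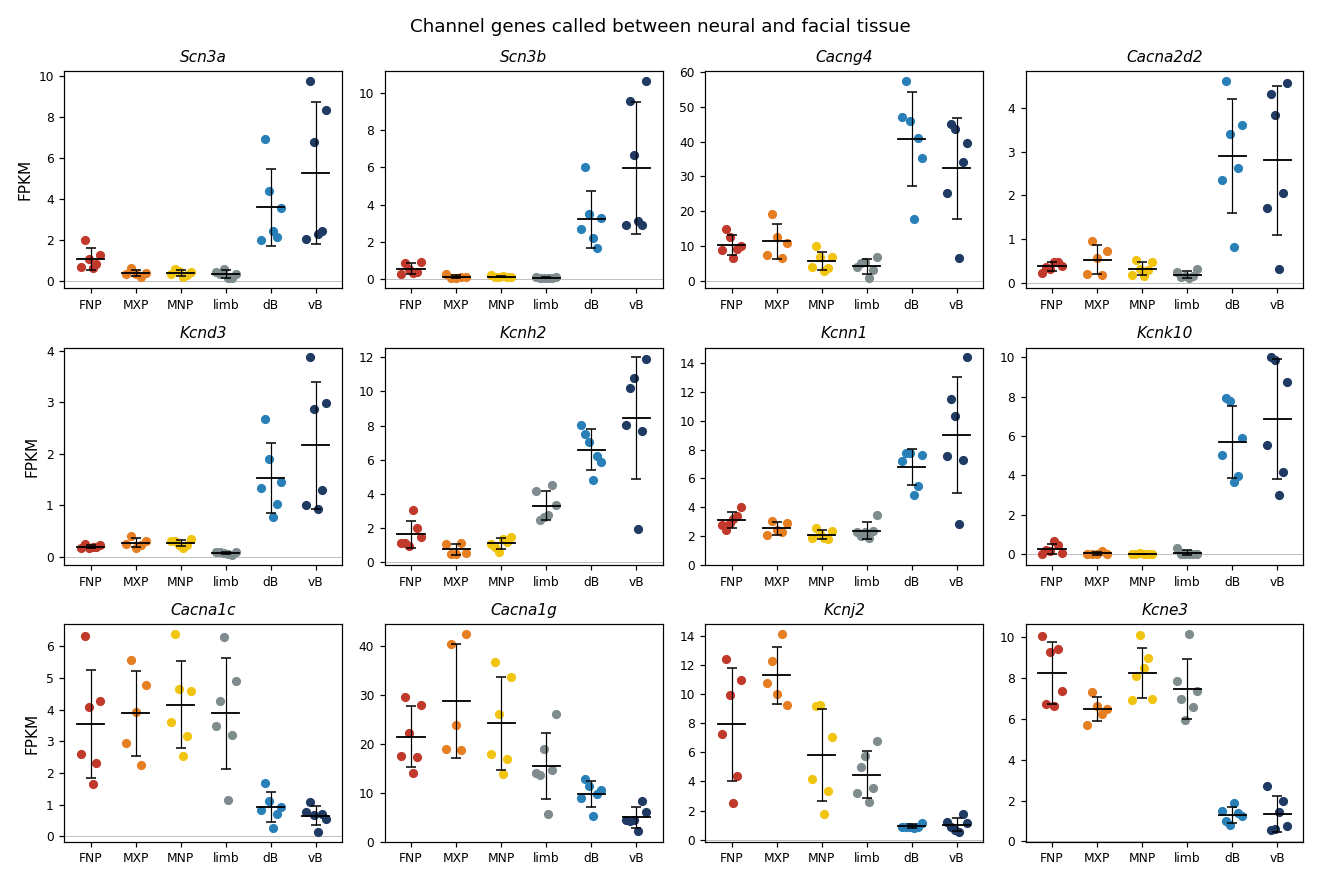
FPKM of 12 genes called between neural and facial tissue, 1 point a library, with the mean (line) and SD (bar) of each tissue. For Scn3b, Kcnd3, Kcnk10, Cacna1g, Kcnj2 and Kcne3 no neural library overlaps a facial one, and the lowest vB point for Cacng4, Cacna2d2, Kcnh2 and Kcnn1 is replicate 4.

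Of the 16 genes called, 7 had neural and facial ranges that did not overlap. The same count was not made over all genes called, so it is not a trait of channel genes. The tissues also differed in markers of cell types. Of neuron markers, 10 of 11 were called higher in the neural libraries, and their mean log2 level was 4.62 to 6.13 in dB and vB libraries against 1.27 to 3.03 in facial ones. All 8 neural progenitor markers were called higher, while 8 of 10 mesenchyme, 3 of 9 skeletal muscle and all 8 surface ectoderm markers were called lower. Of 5 markers of sensory ganglia and crest glia, 1 was called higher and 1 lower, and 0 of 7 endothelium, 0 of 5 erythroid, 0 of 4 macrophage and 0 of 4 pericyte markers were called. The part of these cell types in the channel differences was not tested. With vB replicates 1, 4 and 5 and FNP replicates 4 and 5, which stood apart in these markers, left out, 22 of the 52 were called, and they held 15 of the 16. Without vB replicate 4 alone, 18 were called. The share of all genes called with libraries left out was not counted.

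The 16 genes called had the same sign in both sets of sequencing runs, while Cacng7 and Cacnb3, which were not called, did not. Kcnk10 was 3.00 higher in neural tissue within replicates 1 to 3 and 2.30 within replicates 4 to 6, which came from other runs. Kcnh2 was 2.39 and 1.52 higher, and Scn3b 2.23 and 1.83 higher. Of the genes higher in the face, Kcnj2 was at -2.43 and -1.81, Kcne3 at -2.07 and -1.80, Cacna1g at -1.69 and -1.64, and Cacna1c at -1.40 and -1.42.

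Against limb, neural tissue gave 19 calls among the 52 genes. Of these, 16 were higher in neural tissue (30.8%, where 8.05% of all genes tested were) and 3 were lower (5.77%, where 4.36% of all genes were), and under quantile normalization 14 were higher and 5 lower. The same neural libraries enter this comparison and the one with the face, so the values are given side by side. Kcnk10 was 2.69 higher than in limb and 2.66 higher than in the face, Scn3b 2.25 and 2.03, and Scn3a 1.86 and 1.62. Kcne3 was 1.90 lower than in limb and 1.93 lower than in the face. The other genes called lower than in limb were Kcnj2, by 1.43, and Cacna1c, by 1.39.

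Cacng4 had the largest difference to limb. Its limb libraries lay between 0.676 and 6.66 FPKM (median 4.44), against 6.59 to 57.5 in neural libraries. The ranges met only at vB replicate 4, and the difference was 2.88 ± 0.32 (SE; limma, adjusted p = 4.3e-09). Cacna2d2, Kcnd3, Kcnh4 and Kcnn1 were the other genes called higher than in both the face and limb, by 1.57, 1.33, 1.36 and 1.33 over limb.

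A further 7 genes were called higher in neural tissue than in limb but not than in the face. Of these, Cacna2d3, a second alpha2delta subunit, was 1.29 higher (limma, adjusted p = 6.8e-05), with 0.206 to 0.546 FPKM in limb and 1.27 to 5.14 in neural libraries. Cacna1b was 1.43 higher, with 0.649 to 1.13 FPKM in limb and 0.477 to 9.88 in neural libraries, and only vB replicate 4 fell below the highest limb library. Cacnb3, Kcnip1 and Kcnj8 were 1.06, 1.18 and 1.02 higher, and under quantile normalization Kcnip1 and Kcnj8 were 0.96 and 0.91 higher and were not called. In replicates 4 to 6 alone, Kcnj8 was too low to be tested. Kcnk2, a stretch-sensitive relative of Kcnk10, was 1.34 higher, with 0.477 to 0.965 FPKM in limb and 1.91 to 4.94 in neural libraries.

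Of the 19 genes, 14 had ranges that did not overlap, a count that was not made over all genes called. Cacnb3 was not called within replicates 4 to 6 (0.88) or with the sequencing run as a block (0.94). Cacna1b was 1.19 higher within replicates 4 to 6 and was not called there, with vB replicate 4 its lowest neural library. All 11 neuron and all 8 neural progenitor markers were called higher than in limb. Of the others, 7 of 10 mesenchyme, 7 of 9 skeletal muscle and all 8 surface ectoderm markers were called lower, and their part in these values was not tested.

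Facial tissue and limb differed in 4 of the 52 genes. Higher in the face were 3 (5.77%, where 1.51% of all genes were) and lower 1 (1.92%, where 1.11% of all genes were). Kcnk2 was 1.56 ± 0.17 higher in the face (SE; limma, adjusted p = 1.7e-08), with 1.26 to 11.9 FPKM in facial libraries (median 3.19) and 0.477 to 0.965 in limb (median 0.616). The ranges did not overlap. Kcnmb2, a beta subunit that inactivates the large-conductance potassium channel, was 1.19 ± 0.23 higher (SE; limma, adjusted p = 0.00037), with 0.172 to 9.22 FPKM in facial libraries and 0.0291 to 0.154 in limb.

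Kcnh2 was the gene lower in the face, by 1.04 ± 0.19 (SE; limma, adjusted p = 0.00019), and it was not called with transcripts under 200 bases left out (-0.996). Its limb libraries lay between 2.43 and 4.53 FPKM (median 3.04), above all facial libraries except FNP replicate 4 at 3.05. The limb median lay between those of the facial and neural libraries for this gene. Cacng4 was 1.00 higher in the face (limma, adjusted p = 0.024), close to the limit of 1. It was not called under 11 of the 16 alternatives, among them without MXP replicate 2 (0.94), 3 (0.98) or 6 (0.998), under quantile normalization (0.90) and when runs were fitted as a block (0.77). Within replicates 4 to 6, only Kcnk2 was called of these 4 genes. Skeletal muscle markers were called lower in the face in 4 of 9 and neuron markers higher in 5 and lower in 1 of 11, and their part in these values was not tested.

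Between dB and vB, 0 of the 52 genes were called in limma, where 0.954% of all genes were called higher in dB and 0.438% lower. At an unadjusted p under 0.05 there were 12, and at an adjusted p under 0.05 there was 1, Kcnip2, a calcium sensor of A-type channels, which was 0.60 lower in dB. Kcnip2, and Cacna1h below, were named after their values were seen. Neither count was made over all genes tested. Cacna1g was 0.88 ± 0.29 higher in dB (SE; limma, adjusted p = 0.079), with 5.20 to 12.8 FPKM in dB (median 10.1) and 2.26 to 8.44 in vB (median 4.51). Within replicates 1 to 3 alone it was called, 1.15 higher in dB, and within replicates 4 to 6 it was 0.607 higher and not called.

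The vB libraries spread far more than the dB libraries in several neuronal channel genes. Cacna1b ran from 0.477 to 9.88 FPKM in vB, with 2.20, 0.477 and 4.47 in replicates 1, 4 and 5 and 8.41 to 9.88 in replicates 2, 3 and 6. In dB it ran from 1.43 to 7.05. Scn3a ran from 2.04 to 9.79 in vB and from 2.00 to 6.95 in dB. Scn3b ran from 2.91 to 10.7 in vB and from 1.63 to 6.05 in dB. Replicates 1, 4 and 5 were the 3 lowest vB libraries for Scn3a, Scn3b, Kcnh4 and Cacna1b.

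With vB replicates 1, 4 and 5 and FNP replicates 4 and 5 left out, 6 of the 52 genes were called, all lower in dB. The share of all genes called with these libraries left out was not counted, so the 6 cannot be set against it. Among them, Scn3b was 1.30 ± 0.18 lower (SE; limma, adjusted p = 3.8e-06), Cacna1b 1.25, Scn3a 1.09, and Kcnh4 and the T-type pore Cacna1h 1.04. This choice was made after the data were seen. The 3 vB libraries left out had neuron marker means of 4.82 to 5.23 and mesenchyme marker means of 3.83 to 4.56, and the 3 kept had 5.64 to 6.13 and 0.701 to 2.16. Leaving them out kept the vB libraries with the highest neuron markers. Over all libraries, 4 of 10 mesenchyme markers were called higher in dB and 0 of 11 neuron markers were called. The part of the cell make-up in these 6 differences was not tested. Without vB replicate 4 alone, 0 genes were called and 12 had an adjusted p under 0.05 in limma, again without a count over all genes.

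**Figure D4:**
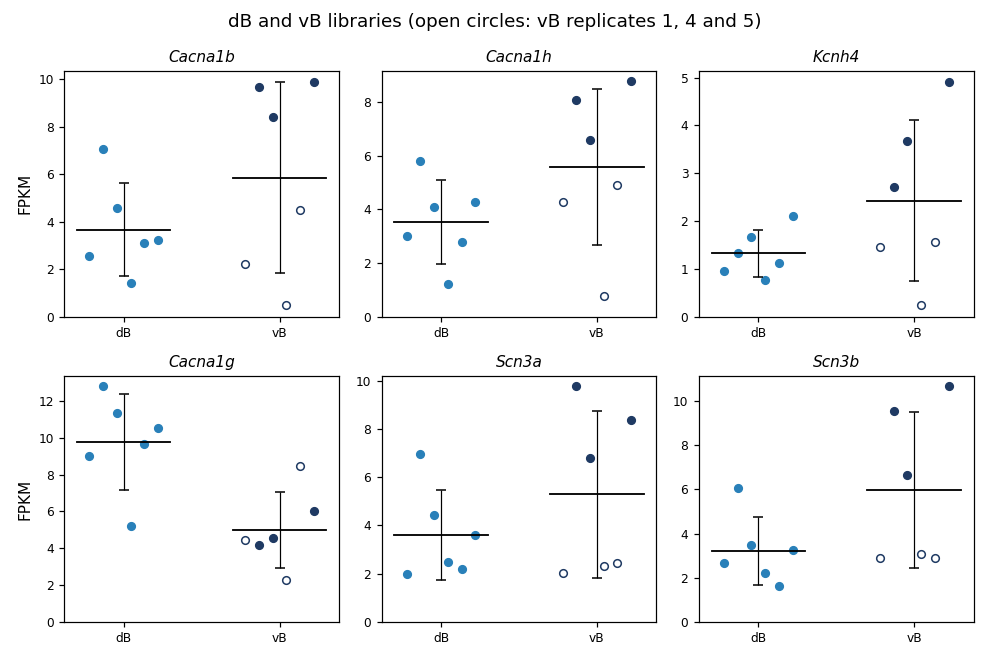
FPKM of 6 genes in the 6 dB and 6 vB libraries, 1 point a library, with the mean (line) and SD (bar) of all 6; open circles are vB replicates 1, 4 and 5. The open circles lie within or below the dB range, and the filled vB points lie above all dB points for Cacna1b, Cacna1h, Kcnh4 and Scn3b, at 8.41 to 9.88 FPKM for Cacna1b, but not for Scn3a or Cacna1g.

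Among the facial prominences, 3 of the 52 genes were called in 1 or more pairs (3.8% of all genes tested were). FNP differed from MXP in Cacna1d and Kcnmb2, and MNP differed from MXP in Kcnk2. Between FNP and MNP, 0 genes were called in limma, with 16 at an unadjusted p under 0.05 and 4 at an adjusted p under 0.05, among them Cacna1d, Kcnmb2 and Kcnip2. The counts of 16 and 4 were not made over all genes tested.

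Cacna1d was highest in the frontonasal prominence. It lay between 2.93 and 4.23 FPKM in FNP (median 3.69), between 0.999 and 2.23 in MNP (median 1.52), and at 1.08, 1.12, 0.594, 0.683 and 0.865 in the 5 MXP libraries. All FNP libraries lay above all MXP and MNP libraries. The difference to MXP was 1.32 ± 0.14 (SE; limma, adjusted p = 2.6e-08), and the difference to MNP, 0.87, was under the limit of 1.

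Kcnmb2 (chr3:31902702-32200180) lay between 0.424 and 9.22 FPKM in FNP (median 4.05) and at 1.83, 0.216, 0.864, 0.710 and 0.172 in MXP. FNP replicates 4 and 5 were its lowest FNP libraries, and the ranges overlapped. These libraries had the highest neural progenitor marker means of FNP and the lowest surface ectoderm marker means, 3.23 to 3.32 against 4.18 to 4.37 in the other FNP libraries, and the part of either was not tested. The difference was 1.39 ± 0.30 (SE; limma, adjusted p = 0.0019) over all libraries and 0.88, not called, within replicates 4 to 6. Without FNP replicates 4 and 5 and the 3 vB libraries it was also called against MNP, at 1.57, compared with 1.00 over all libraries. Against MNP it was called as well with the sequencing run as a block (1.01), without transcripts under 200 bases (1.02) and within replicates 1 to 3 (1.45), but not within replicates 4 to 6 (0.55).

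Kcnk2 (chr1:189207929-189402273) was highest in the maxillary prominence, at 4.43, 8.99, 11.9, 3.82 and 10.96 FPKM in MXP replicates 1, 2, 3, 5 and 6. MNP libraries lay between 1.26 and 2.93 (median 2.04), below every MXP library, and the difference was 1.49 ± 0.22 (SE; limma, adjusted p = 2.4e-05). FNP libraries lay between 2.12 and 4.83 (median 3.82). FNP was 0.87 lower than MXP and was not called, but it was called without MXP replicate 1 (1.02 lower) or without MXP replicate 5 (1.06 lower), the pair with the least Kcnk2.

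Neuron markers were called higher in FNP than in MNP in 5 of 11 and than in MXP in 3 of 11, and they were called lower in MNP than in MXP in 2 of 11. Neural progenitor markers were called higher in FNP than in MNP in 3 of 8 and than in MXP in 2 of 8, and of 8 surface ectoderm markers 2 were called higher and 2 lower in FNP than in MXP. Skeletal muscle markers were called lower in FNP than in MNP in 8 of 9 and higher in MNP than in MXP in 6 of 9. Mesenchyme markers were called lower in FNP than in MXP in 3 of 10. Their part in the differences among prominences was not tested.

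**Figure D5:**
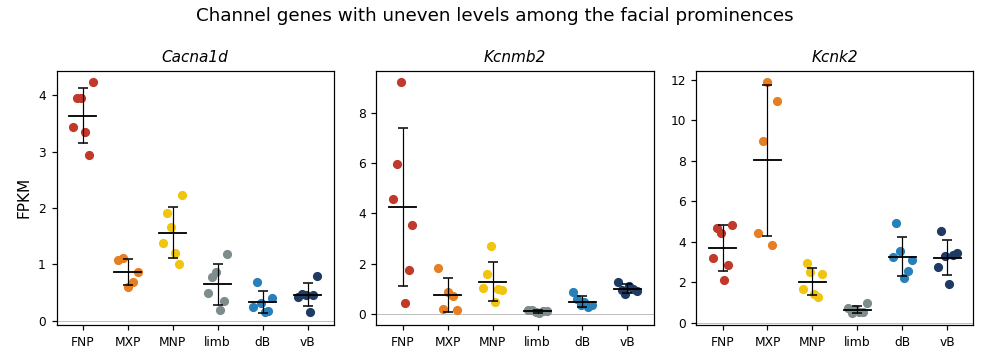
FPKM of 3 genes in each library by tissue, with the mean (line) and SD (bar). FNP lies above the other prominences for Cacna1d and MXP above MNP for Kcnk2, and for Kcnmb2 the FNP and MXP libraries overlap.

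Genes that work with these channels but lie outside the name stems were read from a list of 38 anchors, modulators and related pores, of which 37 were in the files and 23 were tested. Neural against facial, 11 were called higher and 1 lower, with a median difference of 0.92, where 6.64% and 4.64% of all genes tested were called. Against limb, 14 were called higher and 1 lower, where 8.05% and 4.36% of all genes were. The largest differences to the face were those of Cntnap2 and Cntn2, adhesion proteins that gather potassium channels along axons, at 3.69 and 2.43. Dpp6, a transmembrane partner of A-type channels, was 1.94 higher, with 2.92 to 10.6 FPKM in neural and 0.425 to 1.09 in facial libraries. Fam155a, a subunit of the sodium leak channel, was 1.71 higher. Rest, a repressor that holds many neuronal channel genes silent outside neurons, was the gene called lower, by 1.52. It lay between 0.647 and 7.09 FPKM in neural and between 7.05 and 20.4 in facial libraries.

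Of the 52 genes, 28 were called in no comparison. They included Cacng7, abundant in every tissue with means of 20.6 to 36.9 FPKM, and Kcnmb4, with means of 9.33 to 20.4 FPKM. Among the 27 genes named by the rule, 9 have exons that overlap a gene on the opposite strand, and since it is not stated whether the counting used strand, reads of such pairs cannot be told apart. They are Cacna1d, Cacna2d2, Kcnab1, Kcnd3, Kcne3, Kcnk1, Kcnk2, Kcnmb4 and Kcnn1.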

How the data were processed

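PolyA RNA of 35 libraries was sequenced in paired-end reads of 75 bases. The deposited tables give FPKM and coverage for each transcript, made by the authors with Cufflinks on mm10 according to the files; the submitters' notes also name Bowtie2 and DESeq2, and the aligner behind these tables and the use of strand were not given in the sources used here. Coverage, as deposited, served only to check depth: it was 2.70 to 5.51 per FPKM unit, and read totals are unknown. Per table, 59055 transcripts were read and 65 rows with a space in the gene name were not, none of them a channel gene.

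The FPKM of transcripts under 1 symbol were added up. For the 13934 genes that averaged 1 FPKM or more in some tissue, limma 3.58.1 (run under R 4.3.3) took log2(FPKM + 1) as its input, with a mean for each tissue, a mean-variance trend and robust moderation; p-values were adjusted by Benjamini-Hochberg over all genes. The added 1 understates differences of low genes. In a test on simulated data, for the neural against facial comparison, 98 of 100 genes changed by 1.5 and 98 of 100 changed by 2.5 (log2) were called, and 1 of 13734 unchanged ones. The simulated noise was normal and independent between libraries, while real libraries of the same number deviated together. The test therefore does not give the error rate of the real calls. Libraries are described as independent replicates. Named genes were those called in any of the 7 comparisons, the most abundant of each class, those at the 1 FPKM limit and, with full statistics, the 3 per class with the largest neural to facial difference. Channel genes, marker and partner lists were chosen with earlier results of these data known. Some channel genes are counted but not reported by name here. Coding sequences came from GENCODE vM21. Alternatives were an added 0.1, no filter, quantile normalization, no transcripts under 200 bases, replicate or run blocks, subsets of replicates and left-out libraries; 2 were chosen after seeing the data. Figures were drawn with matplotlib 3.10.9.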

Additional observations from a re-analysis of the deposited data

Results flagged for a closer look

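Within tissues, 12 of 144 groups of libraries (named genes in each of 6 tissues) held a library far from the others by Dixon's test at the 95% level, a level that chance passes in about 1 in 20 groups. Ventral brain replicate 4 gave 4 of them, all low: Cacnb3 at 9.95 FPKM (30.9 to 49.7 in the other vB libraries), Cacng4 at 6.59 (25.1 to 45.0), Kcnh2 at 1.91 (7.70 to 11.9) and Kcnmb4 at 5.45 (9.94 to 12.3). Its long genes also deviated most from the tissue median, at -0.836 (log2). Cacnb3 was low in limb replicate 4, at 6.24 FPKM (14.3 to 20.1).

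Libraries that lay high were Kcnh4 in MNP replicate 3, at 0.0117 FPKM where the other 5 were listed at 0, Kcnh4 in limb replicate 1, at 0.0949, Kcnk10 in limb replicate 1, at 0.323 (0.0178 to 0.0322 in the others), and Kcnk10 in MXP replicate 5, at 0.148. Limb replicate 1 also had the highest neuron marker mean of the limb libraries, 1.81 against 1.196 to 1.36. Kcnj2 in dB replicate 6 was 1.18 FPKM (0.830 to 0.888), Kcnk1 in dB replicate 5 2.67 (2.00 to 2.21) and Kcnn1 in limb replicate 6 3.50 (1.87 to 2.32).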

How the results depend on the processing

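Of 44 results for single genes, 30 kept their side of the threshold under all 16 alternatives, 14 did not under 1 or more, and 0 changed sign. The share of all genes called was counted only for the reported setting, not for the alternatives. With 0.1 added in place of 1, calls among the channel genes were 31 neural against facial, 33 neural against limb, 9 facial against limb, 1 dB against vB (Kcnip2) and 14 among the prominences; the smaller addition by construction widens differences of low genes. Within replicates 1 to 3 there were 26 neural against facial and 1 dB against vB, and within replicates 4 to 6 there was 1 facial against limb (Kcnk2) and 1 among the prominences (Cacna1d); these subsets hold fewer libraries. Without transcripts under 200 bases there were 2 facial against limb, both higher in the face, since Cacng4 and Kcnh2 lost their calls. With the 5 libraries left out that stood apart in markers, there were 6 dB against vB. Leaving out each MXP library moved no count by over 1.5 times, with 15 to 16 calls neural against facial, 19 neural against limb, 3 to 4 facial against limb, 0 dB against vB and 3 among the prominences.

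Libraries of the same replicate number deviated together in 78 of 85 pairs (correlation over 0.1; lowest 0.00777, median 0.342), and 31 of 35 correlated best with their own number, a hint from the data and not the design. With the replicate number as a block, 16 genes were called neural against facial (15 of them shared), 19 neural against limb, 3 facial against limb, 0 dB against vB and 3 among the prominences. Under this block Cacna1d neural against facial (-0.997) and Cacng4 facial against limb (0.93) were not called.

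Without vB replicate 4, calls were 18 neural against facial and 25 neural against limb.

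The read counts behind each FPKM value are unknown, and no counting error is given, which matters most for genes near or under 1 FPKM.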
